A study of Mus musculus with 18 samples.

Results

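The genes followed here encode 10 proteins that bind actin or cut its filaments: Gsn, Capg, Cnn2, Tagln2, Cfl1, Cotl1, Coro1a, Arpc1b, Pfn1 and Tmsb10. They were taken by symbol from a table of 27297 gene rows. Each of the 10 has a row of its own that carries no second symbol. All 10 passed the filter on low counts in the main fit, so no member is missing from its tests. In some alternative settings, named below, 9 of the 10 could be tested.

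Actin filaments shape the cortex, the phagocytic cup and the moving processes of macrophages and microglia, the resident macrophages of the brain. Filaments grow from monomers that profilin and the thymosins bind, branch at the Arp2/3 complex, and are bundled or stabilised by side-binding proteins. They are taken down again by severing proteins of the cofilin and gelsolin families. Microglia descend from progenitors that arise in the yolk sac, enter the embryonic brain and change there from rounded, dividing cells to branched cells that survey the tissue.

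The samples are sorted single cells from Cx3cr1-GFP+ C57BL/6J mice, which carry a green fluorescent protein reporter at the fractalkine receptor locus. The animals received no treatment. The groups were yolk sac at embryonic day 12.5 (E12.5; 4 libraries, 671 cells), brain at E12.5 (4 libraries, 718 cells), brain at E18.5 (6 libraries, 992 cells) and adult brain (4 libraries, 631 cells). Both E12.5 groups were sorted as CD45+ CD11B+ GFP+ cells. The E18.5 and adult groups were sorted as CD45int CD11Bint GFP+ cells, so the gate changes with age after E12.5. MARS-seq counts the 3' ends of mRNAs as unique molecular identifiers (UMIs), each standing for 1 captured molecule. Each library was made from 192 wells, and each plate gave 2 libraries. The well annotation lists 1 subject number for each age, so the p-values measure the spread between libraries and plates, which may be technical.

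Summed over the kept cells, libraries held 74562 to 534219 UMIs. The median UMI count per cell was 1511 in yolk sac at E12.5, 1725 in brain at E12.5, 983 in brain at E18.5 and 521 in adult brain. Levels below are CPM, a gene's UMIs divided by the library's UMI total and multiplied by 1000000, so they are relative levels, and a lower total per cell does not enter them. The 12 markers of microglia and of the sort gate were all detected in every group, with summed levels of 14957 to 15693 CPM in yolk sac at E12.5, 24057 to 25425 CPM in brain at E12.5, 45464 to 52336 CPM at E18.5 and 68788 to 72800 CPM in adult brain. Other marker lists also moved with the groups. Markers of border and yolk sac macrophages summed to 3422 to 6060 CPM in yolk sac, against 61.3 to 253 CPM in brain at E12.5. Erythroid genes summed to 189 to 4009.7 CPM in yolk sac, against 11.2 to 149.96 CPM in brain at E12.5, and granulocyte precursor genes to 429 to 1542 CPM, against 78.9 to 158 CPM. Genes of granulocyte precursors summed to 2495 to 9439 CPM in adult libraries, against 229.7 to 1272 CPM at E18.5, with S100a8, S100a9 and Ngp at 0 in adult cells. Immediate early and heat shock genes that respond to dissociation summed to 123 to 189 CPM in brain at E12.5, 3295 to 4144 CPM at E18.5 and 5780 to 7886 CPM in adult brain. The heat shock genes of this list did not share the rise in adult brain, where Hspa1a and Hspa1b were at 0. At E18.5 Hspa1b was at 0. Smooth muscle and fibroblast markers summed to at most 98.0 CPM in yolk sac libraries and 339.9 CPM in those of brain at E12.5, and all 8 were at 0 at E18.5. Of these, Tagln, Myh11, Dcn and Lum were at 0 in all 4 groups. The part of these lists in the results below was not tested, apart from the counts given without such cells.

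RefSeq promoter windows, which run from 250 bases before to 50 bases after an annotated start, were present for 9 of the 10 genes, in 14 windows. Windows are shown for Gsn and Cnn2, the pair with the lowest levels at E18.5 relative to E12.5. Capitals mark a CArG box, the site of serum response factor, which drives many actin cytoskeleton genes, and the core GGAAGT bound by ETS factors such as PU.1, the lineage factor of macrophages. Both sequences are from the GRCm38.p6 build, plus strand; the Cnn2 window is chr10:79988350-79988649 and the Gsn window, the second of 3 for that gene, is chr2:35266494-35266793.
Cnn2: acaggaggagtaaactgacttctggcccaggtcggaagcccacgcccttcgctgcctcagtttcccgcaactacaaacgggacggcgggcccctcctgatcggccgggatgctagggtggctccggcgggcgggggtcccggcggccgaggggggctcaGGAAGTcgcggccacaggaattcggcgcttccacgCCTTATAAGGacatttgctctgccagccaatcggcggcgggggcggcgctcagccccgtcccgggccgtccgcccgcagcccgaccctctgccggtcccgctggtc
Gsn: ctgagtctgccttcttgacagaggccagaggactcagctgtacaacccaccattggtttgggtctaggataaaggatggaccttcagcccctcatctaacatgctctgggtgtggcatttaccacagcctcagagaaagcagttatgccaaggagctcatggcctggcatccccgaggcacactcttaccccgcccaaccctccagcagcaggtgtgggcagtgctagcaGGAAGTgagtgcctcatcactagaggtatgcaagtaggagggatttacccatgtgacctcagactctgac

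Motifs were searched on both strands. The CArG box CCTTATAAGG starts 56 bases before the Cnn2 start site. It was the only CArG box in the 14 windows, and 1.63% of all 32851 windows hold one. The ETS core GGAAGT was in 6 of the 14 windows, 1 each for Gsn, Arpc1b, Capg, Cnn2, Pfn1 and Cfl1, against 23.8% of all windows. The GC box GGGCGG was in 13 windows of 8 genes, against 35.7% of all windows, and overlaps neither other motif in the Cnn2 window. The TATA box TATAAA was in none of the 14, against 13.6% of all windows. The match says only that these letters are present.

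The 10 genes were high in both E12.5 groups and together lower at E18.5 and in adult brain. Together they held 1.15% ± 0.123 of all UMIs in yolk sac at E12.5 (SD, n = 4 libraries), 1.25% ± 0.292 in brain at E12.5 (n = 4), 0.649% ± 0.0663 at E18.5 (n = 6) and 0.454% ± 0.0196 in adult brain (n = 4). The genes differed in when they fell. Gsn, Pfn1, Cfl1 and Tmsb10 were lower at E18.5 than at E12.5 and lower again in adult cells. For Cfl1 the first of these steps depended on the setting, and its libraries overlapped, as given below. Cnn2, Cotl1, Coro1a, Capg and Tagln2 fell by E18.5, and their adult level over that of E18.5 did not pass the test. With sequencing batch as a covariate, the fall by E18.5 did not pass for Pfn1 and Tagln2. Without cells that held markers of other types, the adult step did not pass for Gsn and Tmsb10. Arpc1b passed only over the whole span. Between yolk sac and brain at E12.5, Tagln2 was higher in yolk sac and Cotl1 lower, where 15.9% of all genes passed. The Cotl1 difference did not pass in 10 of 19 other settings. That of Tagln2 did not pass without cells that held a cell cycle marker UMI. Each adjusted p below comes from edgeR's quasi-likelihood test on counts summed per library, adjusted by the Benjamini-Hochberg method over 4883 genes, and a gene is called at an adjusted p under 0.05. The plot of levels by library shows each value.

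**Figure D1:**
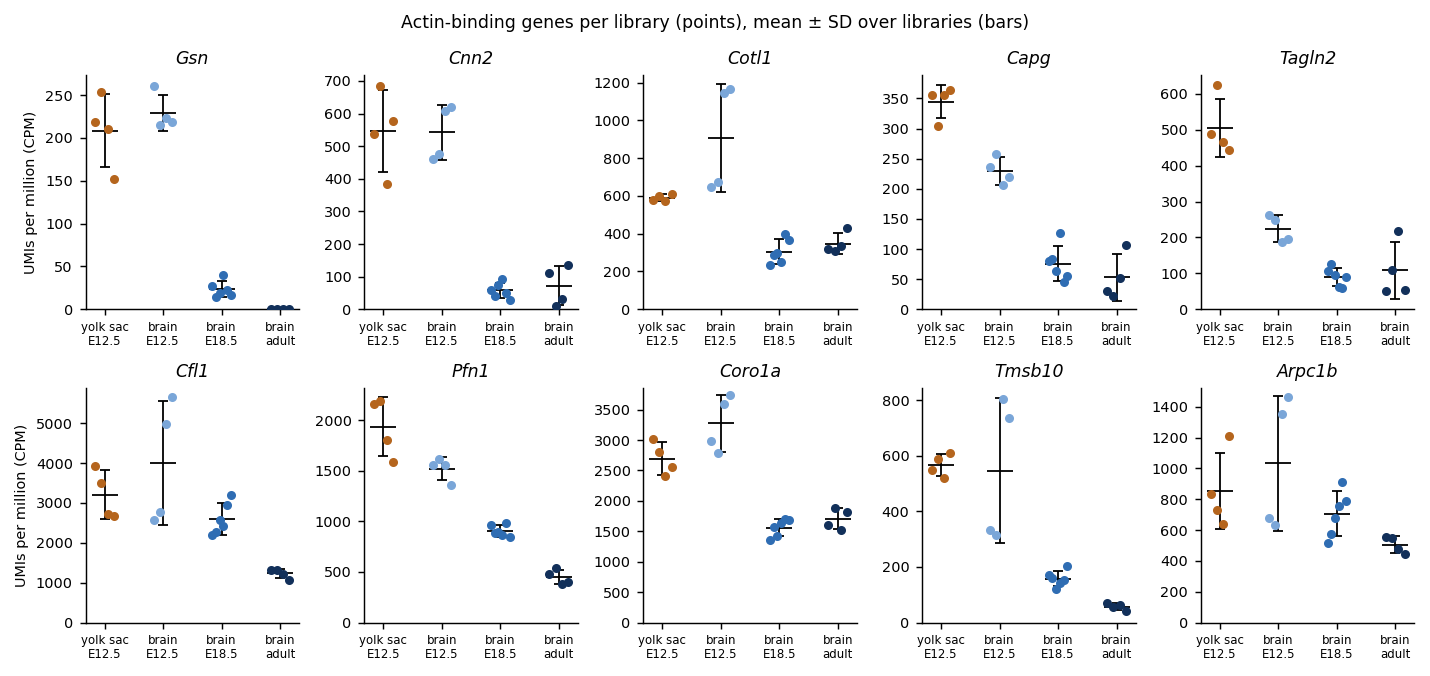
Each panel gives 1 gene, with the y axis in CPM starting at 0. Points are libraries in accession order, and bars are the mean and SD over libraries. Apart from Cfl1 and Arpc1b at E18.5 and Tagln2 in adult brain, the later libraries lie below those of brain E12.5, and in the panels of Cotl1, Cfl1, Tmsb10 and Arpc1b the 4 brain E12.5 libraries form a low and a high pair.

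Gsn encodes gelsolin, which severs filaments in response to calcium and caps the ends it makes. Gsn stood at 218, 254, 210.3 and 152 CPM in the yolk sac libraries and at 261, 215, 223 and 219 CPM in brain at E12.5. At E18.5 it was at 13.9 to 40.1 CPM with a median of 21.0 CPM, from 25 UMIs in all. In adult brain it was at 0 in each of the 4 libraries. The libraries of the E12.5 groups overlap, those of E18.5 lie apart below them, and those of adult brain apart below E18.5.

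The difference between yolk sac and brain at E12.5 was −0.10 ± 0.23 on the log2 scale (SE) and did not pass the test (adjusted p = 0.853). Gsn was 9.64-fold lower at E18.5 than at E12.5 in brain, a log2 fold change of −3.27 ± 0.28 (adjusted p = 1.44e-11). For adult brain a fold change is only a bound, because 0 of 361302 UMIs allow up to 3 counts, or 8.30 CPM. Against that floor over the group, Gsn was at least 2.83-fold lower in adult brain than at E18.5 (adjusted p = 0.00185) and at least 28.0-fold lower than in brain at E12.5 (adjusted p = 1.11e-11). The first of these calls was lost when cells with a marker UMI of another cell type were left out, where only 88 adult cells remained. Of the 631 adult cells, 534 held a monocyte or granulocyte marker UMI. All 631 held a UMI of C1qa, C1qb or C1qc, which are on the microglia list. In a fit of E18.5 and adult brain alone, Gsn did not pass the filter on low counts. Its call between these ages therefore comes from fits that include the E12.5 groups, where it is high.

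Counted by cell, at least 1 Gsn UMI was found in 191 of 718 brain cells at E12.5 (26.6%; exact 95% interval 23.4 to 30.0), in 22 of 992 at E18.5 (2.22%; 1.39 to 3.34) and in 0 of 631 adult cells (exact upper limit 0.583%; 3 cells would be 0.475%). No cell at E18.5 held more than 2 Gsn UMIs, while 11 brain cells at E12.5 held 5 or more. These intervals cover counting error only, and the cells of the 3 ages differ in depth.

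Capg encodes the macrophage capping protein, a gelsolin relative that caps filament ends without severing. Capg was at 355, 305, 356 and 363 CPM in the yolk sac libraries and at 237, 258, 206 and 219 CPM in brain at E12.5, with no overlap between the groups. The difference of 0.62 ± 0.23 (log2) just missed the threshold (adjusted p = 0.0598). It passed with relative log expression scaling, with DESeq2 and in a fit of these 2 groups alone, at adjusted p from 0.0116 to 0.0392. At E18.5 Capg was at 45.9 to 126 CPM with a median of 71.4 CPM, and in adult brain at 30.2, 22.0, 52.0 and 107 CPM. Every E18.5 library lay below every E12.5 library, and the adult libraries overlapped with those of E18.5.

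Capg was 3.08-fold lower at E18.5 than at E12.5 in brain (log2 −1.62 ± 0.24, adjusted p = 2.05e-06). Adult brain over E18.5 gave −0.54 ± 0.37 (log2, adjusted p = 0.332) from 18 adult UMIs, with an approximate 95% interval of −1.27 to 0.19. Over the whole span Capg was 4.47-fold lower in adult brain than in brain at E12.5 (adjusted p = 1.89e-06), a call that was lost without the cells that held markers of other types (log2 −1.35, adjusted p = 0.151), also when border markers were allowed (−1.57, adjusted p = 0.0878).

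Cnn2 encodes calponin 2, which binds the sides of filaments and restrains myosin on them. Cnn2 was at 537, 686, 385 and 578 CPM in the yolk sac libraries and at 461, 477, 608 and 622 CPM in brain at E12.5. Cnn2 in E18.5 libraries was at 27.7 to 91.7 CPM with a median of 54.5 CPM, and in adult brain at 111, 11.0, 31.2 and 134 CPM from 25 UMIs in all. The E12.5 groups overlap with each other, as do the later ages, and no later library reached the lowest E12.5 library.

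Cnn2 was 9.39-fold lower at E18.5 than at E12.5 in brain (log2 −3.23 ± 0.29, adjusted p = 1.53e-09), next in size to Gsn among the 10 genes. In adult brain it was 7.59-fold lower than at E12.5 (adjusted p = 2.22e-07). Neither yolk sac over brain at E12.5 (log2 0.05 ± 0.26, adjusted p = 0.937) nor adult over E18.5 (0.31 ± 0.44, adjusted p = 0.677) passed. A Cnn2 UMI was found in 398 of 718 brain cells at E12.5, 49 of 992 at E18.5 and 22 of 631 in adult brain.

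Tagln2 encodes transgelin 2, a calponin relative that bundles and stabilises filaments in blood cells. Tagln2 was at 488, 624, 466 and 445 CPM in the yolk sac libraries and at 263, 249, 189 and 197 CPM in brain at E12.5. Every yolk sac library lay above every brain library. The 2.30-fold higher level in yolk sac (log2 1.20 ± 0.23, adjusted p = 0.000114) was the only call in that direction among the 10 genes. When cells with a UMI of a cell cycle marker were left out, the difference was 0.79 and no longer passed (adjusted p = 0.085).

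At E18.5 Tagln2 was at 59.7 to 125 CPM with a median of 91.6 CPM, and in adult brain at 50.3, 109.9, 218 and 53.6 CPM. The E18.5 libraries all lay below those of E12.5, while adult replicate 3 fell between the brain E12.5 libraries. Tagln2 was 2.56-fold lower at E18.5 than at E12.5 (log2 −1.36 ± 0.24, adjusted p = 4.21e-05), and with sequencing batch as a covariate this was −0.88 and did not pass (adjusted p = 0.172). Adult brain over E12.5 gave −1.01 ± 0.30 (log2, adjusted p = 0.0064), which did not pass with the batch covariate (−0.53, adjusted p = 0.428), without cycling cells (−0.53, adjusted p = 0.282), with libraries thinned to 1 total (−0.64, adjusted p = 0.171) or without cells that held markers of other types when border markers were allowed (−1.32, adjusted p = 0.169). Adult over E18.5 gave 0.34 ± 0.32 (log2, adjusted p = 0.487), and −0.28 without adult replicate 3.

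Cfl1 encodes cofilin 1, which severs ageing filaments and speeds their turnover. Cfl1 was at 3937, 3498, 2721 and 2673 CPM in the yolk sac libraries and at 2581, 2778, 4992 and 5659 CPM in brain at E12.5. At E18.5 it was at 2199 to 3208 CPM with a median of 2496 CPM, and in adult brain at 1327, 1308, 1216 and 1073 CPM. The adult libraries lay below all others, and the other 3 groups overlapped with each other.

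Cfl1 was 2.07-fold lower in adult brain than at E18.5 (log2 −1.05 ± 0.22, adjusted p = 0.00144). E18.5 over E12.5 was −0.64 ± 0.20 (log2, adjusted p = 0.0236), but this rests on the second E12.5 plate: without brain E12.5 replicate 4 it was −0.38 (adjusted p = 0.155) and without replicate 3 it was −0.47 (adjusted p = 0.135). It also did not pass without any 1 of E18.5 replicates 1 to 4, with adjusted p from 0.0561 to 0.0668. With plate sums it was −0.61 and did not pass (adjusted p = 0.189). Nor did it pass in a fit of these 2 groups alone (−0.58, adjusted p = 0.0995). Without cells that held markers of other types, border markers allowed, it was −0.46 and did not pass (adjusted p = 0.0542). Yolk sac over brain at E12.5 was −0.30 ± 0.22 (log2, adjusted p = 0.461), and with the batch covariate −0.53, which passed (adjusted p = 0.00594). Adult over E12.5 was −1.69 ± 0.24 (adjusted p = 6.64e-06).

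Cotl1 encodes coactosin-like protein 1, a cofilin-fold protein that binds filaments without severing them. Cotl1 was at 577, 602, 573 and 612 CPM in the yolk sac libraries, and at 645, 674, 1144 and 1169 CPM in brain at E12.5. In E18.5 libraries Cotl1 was at 234 to 400 CPM with a median of 291 CPM, and in adult brain at 322, 308, 332 and 429 CPM. Every yolk sac library lay below every brain E12.5 library, and the libraries of the later ages lay below both and overlapped with each other.

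Cotl1 was 1.50-fold lower in yolk sac than in brain at E12.5 (log2 −0.58 ± 0.19, adjusted p = 0.0275). That call was not stable: it did not pass with DESeq2 (−0.53, adjusted p = 0.141), in a fit of these 2 groups alone (−0.56, adjusted p = 0.0831), with plate sums (−0.55, adjusted p = 0.302) or with libraries thinned to 1 total (−0.46, adjusted p = 0.232). Nor did it pass without any 1 of the 4 yolk sac libraries (−0.60 to −0.56) or of brain replicates 3 and 4 (−0.44 and −0.42), with adjusted p from 0.0501 to 0.171. E18.5 over E12.5 in brain was −1.58 ± 0.18 (log2, adjusted p = 8.43e-09), a 2.98-fold lower level, and adult over E12.5 was −1.37 ± 0.21 (adjusted p = 1.61e-06). Adult over E18.5 was 0.21 ± 0.21 (log2, adjusted p = 0.531), with an approximate 95% interval of −0.20 to 0.62.

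Coro1a encodes coronin 1A, the coronin of blood cells, which binds filaments and the Arp2/3 complex. Coro1a was at 3016, 2805, 2401 and 2555 CPM in the yolk sac libraries and at 2978, 2785, 3591 and 3738 CPM in brain at E12.5. Coro1a at E18.5 was at 1349 to 1709 CPM with a median of 1596 CPM, and in adult brain at 1608, 1879, 1527 and 1824 CPM. The E12.5 groups overlapped, the later ages overlapped, and nothing lay between the pairs.

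Coro1a was 2.12-fold lower at E18.5 than at E12.5 in brain (log2 −1.08 ± 0.13, adjusted p = 1.77e-08). Adult over E18.5 was 0.16 ± 0.13 (log2, adjusted p = 0.423), with an approximate 95% interval of −0.10 to 0.42. Adult over E12.5 was −0.92 ± 0.14 (log2, adjusted p = 1.90e-06). Yolk sac over brain at E12.5 was −0.25 ± 0.14 (log2, adjusted p = 0.269), and without cycling cells −0.47, which passed (adjusted p = 0.0237).

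Arpc1b encodes a subunit of the Arp2/3 complex, which starts new filament branches, and is the main form of that subunit in blood cells. Arpc1b was at 833, 733, 641 and 1209 CPM in the yolk sac libraries and at 680, 631, 1354 and 1466 CPM in brain at E12.5. Arpc1b in E18.5 libraries was at 515 to 914 CPM with a median of 719 CPM, and in adult brain at 553, 549, 478 and 443 CPM. Each group overlapped with the next in the order of levels, which ran from brain E12.5 through yolk sac and E18.5 to adult brain.

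Arpc1b was the 1 gene not called at E18.5 over E12.5 (log2 −0.56 ± 0.24, adjusted p = 0.101). It passed without brain E12.5 replicate 1 (−0.71) or replicate 2 (−0.76), the low pair of that group, with no filter on low counts (−0.61) and with the batch covariate (−1.28). Adult over E18.5 was −0.45 ± 0.27 (log2, adjusted p = 0.277), and passed with no filter on low counts (−0.63), in a fit of these 2 groups alone (−0.44) and with the batch covariate (−0.45). Only the whole span passed, at −1.01 ± 0.29 for adult over E12.5 (log2, adjusted p = 0.00924). Yolk sac over brain at E12.5 was −0.24 ± 0.26 (log2, adjusted p = 0.641), and with the batch covariate −0.86, which passed (adjusted p = 0.00288).

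Pfn1 encodes profilin 1, which hands ATP-loaded monomers to growing filament ends. Pfn1 was at 2157, 2192, 1805 and 1587 CPM in the yolk sac libraries and at 1552, 1617, 1555 and 1357 CPM in brain at E12.5. At E18.5 it was at 846 to 988 CPM with a median of 886 CPM, and in adult brain at 482, 538, 384 and 402 CPM. The E12.5 groups overlapped slightly, and E18.5 and adult brain each lay apart below.

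Pfn1 was lower at each later age. It was 1.69-fold lower at E18.5 than at E12.5 (log2 −0.76 ± 0.13, adjusted p = 2.39e-05) and 1.95-fold lower in adult brain than at E18.5 (log2 −0.97 ± 0.15, adjusted p = 4.94e-06). The first step was −0.37 with sequencing batch as a covariate and did not pass (adjusted p = 0.302). Adult over E12.5 was −1.72 ± 0.16 (log2, adjusted p = 1.04e-11). Yolk sac over brain at E12.5 was 0.39 ± 0.14 (log2, adjusted p = 0.0565), and passed in 6 of 19 other settings.

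Tmsb10 encodes thymosin beta 10, a small peptide that binds actin monomers. Tmsb10 was at 548, 588, 521 and 612 CPM in the yolk sac libraries and at 334, 314, 806 and 735 CPM in brain at E12.5. Tmsb10 at E18.5 was at 119.9 to 205 CPM with a median of 156 CPM, and in adult brain at 70.4, 54.9, 62.3 and 40.2 CPM from 21 UMIs in all. Each later age lay apart below the earlier one, and the brain E12.5 libraries lay on both sides of the yolk sac libraries.

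Tmsb10 was 3.45-fold lower at E18.5 than at E12.5 (log2 −1.79 ± 0.23, adjusted p = 4.36e-07) and 2.66-fold lower in adult brain than at E18.5 (log2 −1.41 ± 0.36, adjusted p = 0.00458). Without cells that held markers of other types the second step was −2.18 and did not pass (adjusted p = 0.0685). Adult over E12.5 was −3.20 ± 0.34 (log2, adjusted p = 2.54e-09), a 9.18-fold lower level. Yolk sac over brain at E12.5 was 0.09 ± 0.23 (log2, adjusted p = 0.865). None of the 21 adult cells with a Tmsb10 UMI held more than 1.

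**Figure D2:**
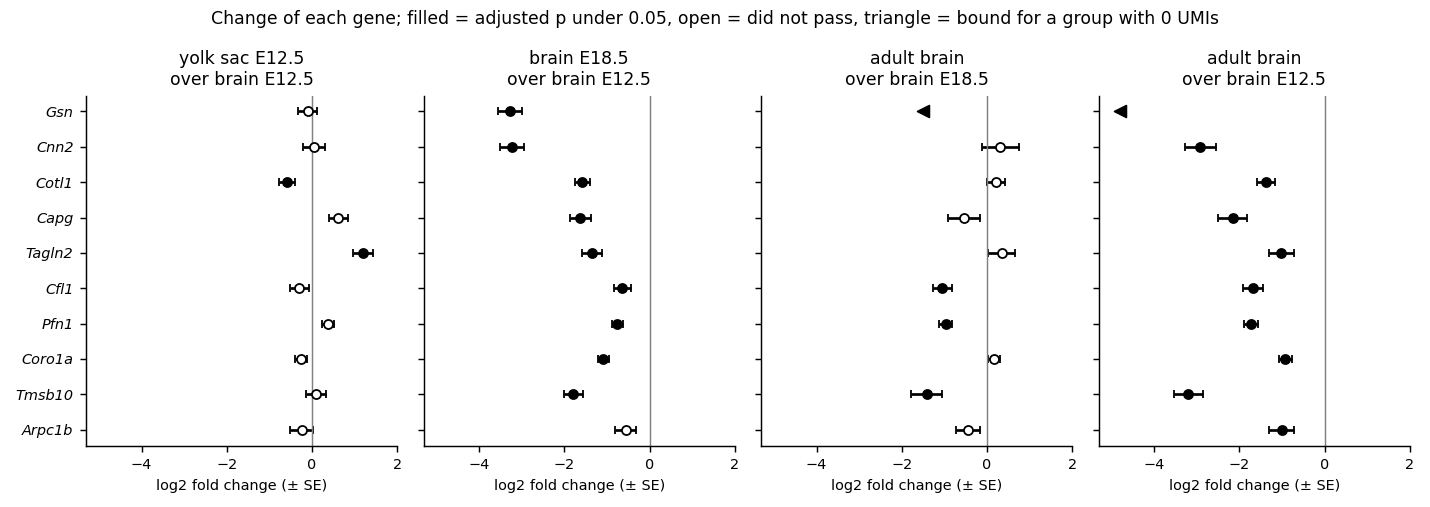
Log2 fold change of each gene with its standard error in the 4 comparisons, the group named first over the group named after it. Filled points passed an adjusted p of 0.05 and open points did not, and the 2 triangles put Gsn at the bound set by 3 counts in adult brain (−1.50 and −4.81). Points of the E18.5 over E12.5 panel all lie left of 0, at −0.56 to −3.27.

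In counts, 9 of the 10 genes were lower and none was higher at E18.5 than at E12.5 in brain, where 24.5% of all 4883 genes were called, 13.4% as lower and 11.1% as higher. Groups did not overlap for 8 of the 10, all lower, against 10.6% of all genes. The median log2 fold change of the 10 was −1.47, against −0.03 for all genes tested. The age comparison coincides with the change of sort gate and of sequencing batch, since no batch held brain cells of both ages, so age and batch cannot be told apart. With batch as a covariate, estimated from E12.5 libraries, 8 of the 10 were called, where 6.8% of all genes were called. Without cells that held a cell cycle marker UMI, 9 were called, against 22.6% of the 2828 genes tested there.

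In adult brain over E18.5, 4 of the 10 genes were lower and none was higher, where 21.5% of all genes were called, 11.2% as lower and 10.3% as higher. Among the 4, Gsn did not pass the filter on low counts in a fit of these ages alone. The same number, 4, did not overlap between groups, all lower, against 9.13% of all genes. The median of the 10 was −0.49, against −0.03 for all genes, and it is the same with Gsn at its bound. These ages share gate and batch. Summed levels of granulocyte precursor genes and of the dissociation genes were higher in adult libraries, as given above. Their part in these results was not tested beyond leaving out cells that held markers of other types. There 2 of 9 genes tested were called, against 16.4% of the 1294 genes tested. In that setting adult replicate 2 had 1 cell and was left out, and the other adult libraries had 18 to 41 cells.

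In adult brain over E12.5, a comparison that shares its libraries with both steps above, all 10 genes were lower, where 38.6% of all genes were called, 20.7% as lower and 17.8% as higher. Of these, 9 did not overlap, all lower, against 19% of all genes, and the exception was Tagln2. The median of the 10 was −1.71, against −0.07 for all genes.

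In yolk sac over brain at E12.5, 1 of the 10 genes was higher and 1 lower, where 15.9% of all genes were called, 7.04% as higher and 8.81% as lower. This count depended on the setting. With RLE scaling 4 of the 10 were called, where 15.7% of all genes were called. With sequencing batch as a covariate 5 were called, where 10.6% of all genes were called. Between the plates of the 1 batch that held both tissues 6 were called, as given below. Cotl1, Capg and Tagln2 did not overlap between the groups, against 19.9% of all genes. The median of the 10 was −0.02, against −0.05 for all genes.

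The brain E12.5 libraries came from 2 plates in different sequencing batches, and the 10 genes differed between them. In plate 2 over plate 1, 5 of the 10 were higher and none was lower, where 10.2% of all genes were called. They were Tmsb10 (log2 1.35 ± 0.19, adjusted p = 5.02e-08), Arpc1b (1.21 ± 0.17, adjusted p = 3.37e-08), Cfl1 (1.10 ± 0.11, adjusted p = 8.18e-13), Cotl1 (0.92 ± 0.16, adjusted p = 1.77e-05) and Coro1a (0.45 ± 0.12, adjusted p = 0.00624). Gsn differed by −0.00074 ± 0.27 (adjusted p = 1) and Pfn1 by −0.01 ± 0.13 (adjusted p = 0.966), and neither passed. With 2 libraries a plate, which share their wells' plate and sort, these p-values describe the plates.

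In yolk sac, plate 4 over plate 3 gave Cfl1 lower (log2 −0.48 ± 0.12, adjusted p = 0.00321) and no other call among the 10, with 6.08% of all genes called. One batch held both tissues, as yolk sac plate 3 and brain plate 2. Within it, 2 of the 10 genes were higher in yolk sac and 4 lower, where 12.8% of all genes were called. Tagln2 was higher by 1.52 ± 0.26 (log2, adjusted p = 1.75e-06), close to its value over all libraries, and Pfn1 by 0.57 ± 0.14 (adjusted p = 0.00104). Cotl1 was lower (−0.98 ± 0.17), as were Arpc1b (−0.86 ± 0.17), Cfl1 (−0.53 ± 0.11) and Coro1a (−0.34 ± 0.12).

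For genes such as Cfl1, Cnn2 and Pfn1, the same shift was visible cell by cell when every cell was thinned to 300 UMIs. Depth then no longer set the chance of finding a molecule. The share of cells with a Cfl1 UMI ranged over libraries from 50.0% to 73.8% in yolk sac, 51.4% to 79.3% in brain at E12.5, 41.1% to 58.0% at E18.5 and 25.2% to 34.8% in adult brain. For Cnn2 the ranges were 6.88% to 18.0% in yolk sac, 15.1% to 17.4% in brain at E12.5, at most 2.45% at E18.5 and at most 4.29% in adult brain. For Pfn1 they were 40.0% to 51.2%, 29.9% to 38.4%, 22.3% to 27.1% and 9.82% to 13.6% in the same 4 groups. The Pfn1 ranges of the 4 groups did not overlap at this depth. In cells thinned to 500 UMIs, those of yolk sac (54.1% to 64.8%) and brain at E12.5 (45.8% to 58.2%) did. Other genes shifted less clearly at 300 UMIs. Tagln2 ranges overlapped between brain at E12.5 (2.91% to 5.35%) and adult brain (1.36% to 6.13%). Arpc1b ranges overlapped between brain at E12.5 (18.2% to 38.5%) and E18.5 (12.9% to 25.2%).

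A thinned cell held UMIs of 2.48 of the 10 genes on average in yolk sac, 2.58 in brain at E12.5, 1.48 at E18.5 and 1.12 in adult brain, as means over libraries. The share of thinned cells with none of the 10 was 5.09%, 3.29%, 18.1% and 29.7% in those groups. Before thinning, a Cfl1 UMI was found in 95.1%, 97.4%, 82.5% and 47.5% of the cells. As a background, 36 wells that received no cell held 1008 UMIs in all, at most 80 in a well. They held 4 UMIs of Coro1a, 3 of Pfn1, 1 each of Cfl1, Tmsb10 and Arpc1b and 0 of the other 5 genes, where 0 of 36 wells allows a share of up to 8.33%.

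**Figure D3:**
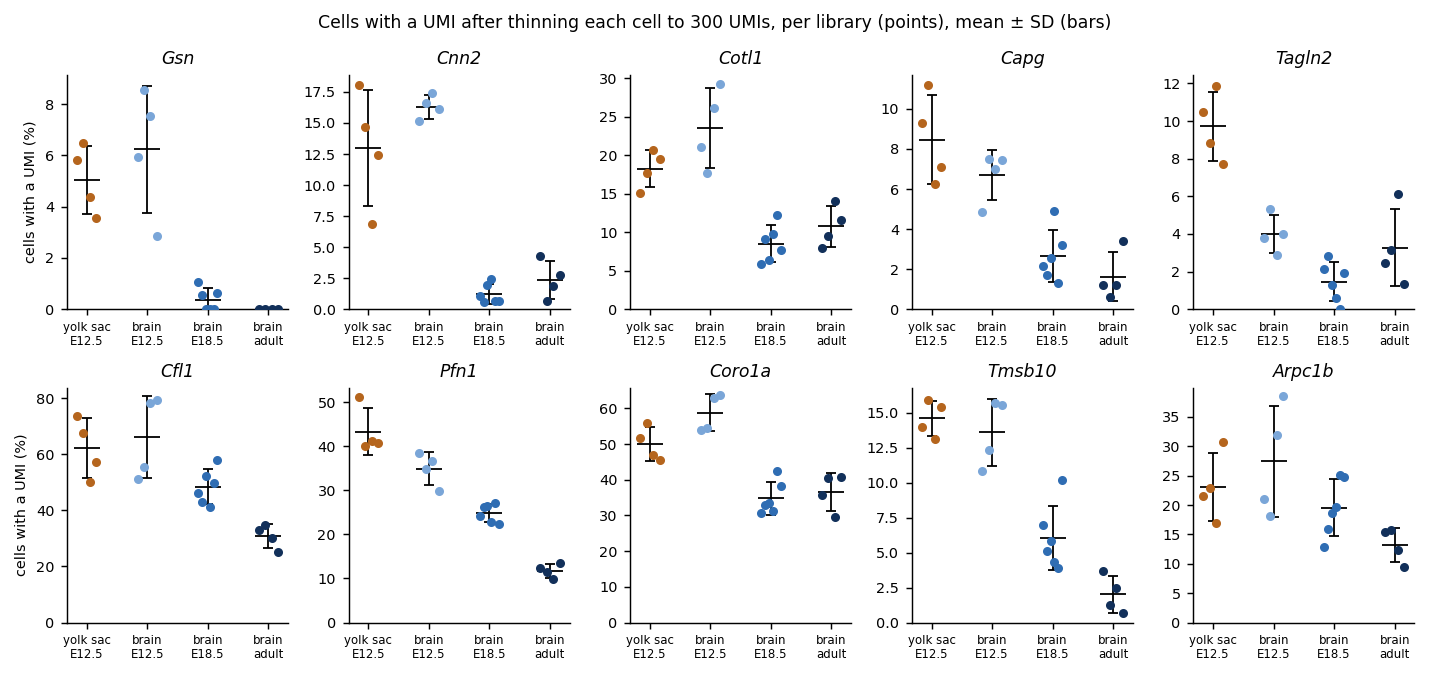
Share of cells, in percent, with at least 1 UMI of each gene after every cell was thinned to 300 UMIs, with libraries as points and the mean and SD over libraries as bars. Pfn1 steps down from group to group after yolk sac, with adult libraries at 9.82% to 13.6%, while the Coro1a ranges overlap between adult brain (29.4% to 40.8%) and E18.5 (30.6% to 42.6%).

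Cells that held a UMI of any of 12 cell cycle markers were set beside the other cells of the same library. Tagln2 was higher in the cells with such a marker in 4 of 4 yolk sac libraries, 4 of 4 brain E12.5 libraries and 6 of 6 E18.5 libraries. The mean was 669 ± 160 CPM with a marker, against 289 ± 64.1 CPM without, in yolk sac (SD over 4 libraries). In brain it was 253 ± 23.5 CPM with a marker and 171 ± 69.6 CPM without at E12.5, and 130.1 ± 50.2 CPM with and 56.8 ± 18.0 CPM without in E18.5 libraries. In adult brain, with 70 marker cells in all, 1 of 4 libraries was higher. Marker cells were deeper, at 1946 against 1407 UMIs per cell in yolk sac, and this split was not tested.

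Tmsb10 was also higher in yolk sac cells with a cell cycle marker, in 4 of 4 libraries, at 692 ± 62.3 CPM against 397 ± 58.2 CPM. In brain it was higher in 2 of 4 libraries at E12.5 and 3 of 6 at E18.5. Arpc1b was lower in yolk sac cells with a cell cycle marker, in 4 of 4 libraries, at 745 ± 196 CPM against 1001 ± 306 CPM. For Cfl1 the ratio of means was 1.01 in yolk sac, 0.95 in brain at E12.5 and 1.05 at E18.5. The cell cycle list summed to 812 to 936 CPM in yolk sac, 994 to 1283 CPM in brain at E12.5, 708 to 1212 CPM at E18.5 and 80.5 to 319 CPM in adult brain.

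Yolk sac cells also differed by markers of border and yolk sac macrophages, which 596 of the 671 cells held. Tmsb10 was lower in the cells with a marker in 4 of 4 libraries, at 494 ± 58.2 CPM against 1200.1 ± 140.2 CPM in the 75 cells without. Coro1a was lower in 4 of 4 as well, at 2540 ± 184 CPM against 4000.2 ± 818 CPM. Arpc1b was at 852 ± 269 CPM with and 852 ± 124 CPM without. Within brain at E12.5, Coro1a was again lower in marker cells in 4 of 4 libraries and Tmsb10 in 3 of 4. At E18.5 Coro1a was lower in 3 of 6 libraries and higher in 3, and Tmsb10 was lower in 4 of 6. In adult brain 21 cells in all held a marker. The summed level of the list was 0 CPM in the lowest adult library, which had no marker cells to compare. No count over adult libraries is therefore given.

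**Figure D4:**
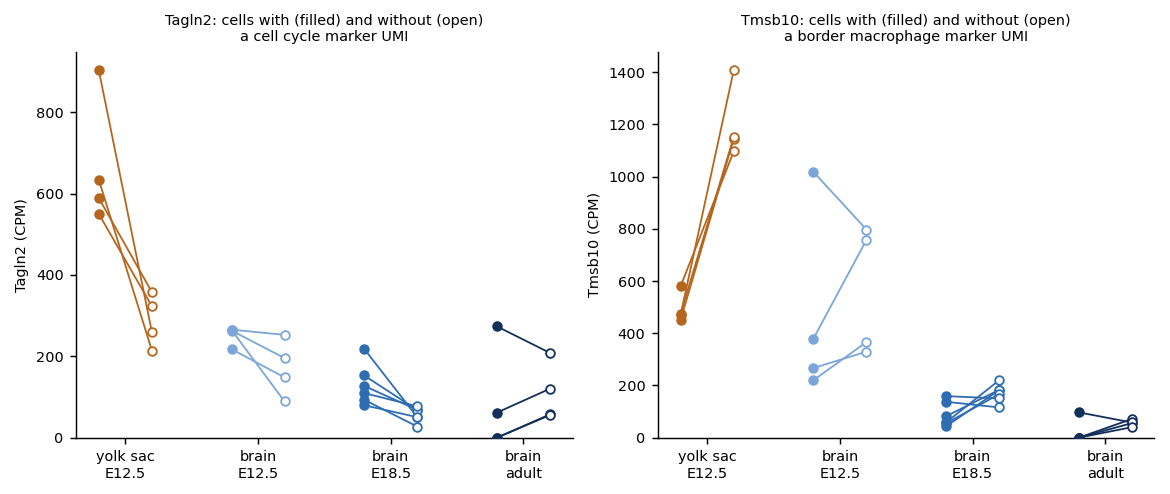
Tagln2 (left) and Tmsb10 (right) in CPM, with each line joining cells of 1 library with a marker UMI (filled) to those without (open). Tagln2 lines slope down from marker cells in all yolk sac, brain E12.5 and E18.5 libraries, and Tmsb10 lines slope up in all 4 yolk sac libraries. An adult library without border marker cells has its filled point at 0 in the right panel.

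From cell to cell within a group, with every cell thinned to 300 UMIs and libraries pooled, Pearson correlations between the 10 genes were near 0. They ranged from −0.03 to 0.16 over 45 pairs in yolk sac, −0.07 to 0.18 over 45 in brain at E12.5, −0.06 to 0.12 over 45 at E18.5 and −0.05 to 0.10 over the 36 pairs without Gsn in adult brain. In counts this sparse such values are no finding. Over the 18 libraries, whose points share group, plate and batch, pairs of the 10 had r from 0.32 to 0.96 with a median of 0.76.

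Genes whose levels were most similar to each of the 10 were taken by Pearson r on log2 CPM over the 18 libraries, among 2282 genes searched. Gsn was most like Cox4i1 (r = 0.97) and Ndufa2 (0.96), and Tmsb10 most like Ndufa7 (0.98) and Hint1 (0.97). Pfn1 was most like Atpif1 (0.98) and Actb, the cytoplasmic beta actin (0.97). Cfl1 was nearest to Eef2 (0.95) and Tuba1b (0.94), Arpc1b to Tuba1b and Eif5a (both 0.86), and Cnn2 to Sepx1 (0.95) and Igf2bp1 (0.91). Tagln2 was nearest to Lgals1 and D8Ertd738e (both 0.93), Capg to Serp1 (0.93), Cotl1 to Cox17 (0.92) and Uqcrc1 (0.90), and Coro1a to Cox17 and Fth1 (both 0.92).

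A wider list of 118 actin cytoskeleton genes, of which 75 could be tested, gives the setting. At E18.5 over E12.5 in brain, 22 of the 75 were lower and 3 higher, so 33.3% were called, against 24.5% of all genes. The median was −0.26, less far from 0 than that of the 10 genes. In adult brain over E18.5, 13 were lower and 10 higher (30.7% called, against 21.5% of all genes, median 0.01). In adult brain over E12.5, 27 were lower and 10 higher (49.3% called, against 38.6% of all genes, median −0.34). In yolk sac over brain at E12.5, 11 were lower and 7 higher (24.0% called, against 15.9% of all genes, median −0.04).

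Actb was among those that fell at each age, with a mean of 18966 ± 1386 CPM in E18.5 libraries, against 25731 ± 1721 CPM in those of brain E12.5 (log2 −0.45 ± 0.09, adjusted p = 0.000392), and at 10770 ± 1003 CPM in adult brain (−0.78 ± 0.10 over E18.5, adjusted p = 6.32e-08). Myosins and tropomyosins, the motors and side-binding partners of filaments, had 7 of 11 tested genes lower and none higher at E18.5 over E12.5, where 13.4% of all genes were lower. An example is Tpm2, at 25.8 ± 10.3 CPM in E18.5 libraries, against 70.3 ± 19.7 CPM at E12.5 (adjusted p = 0.00309). In E18.5 libraries 3 counts stand for 13.8 to 20.9 CPM. Of the other Arp2/3 subunits, 1 of 8 was lower at E18.5 and 3 of 8 in adult brain over E12.5, where 20.7% of all genes were lower. The 3 include Arpc4, whose row also carries Ttll3, at 784 ± 203 CPM in adult brain against 1729 ± 108 CPM in brain at E12.5.

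Some genes of other classes were higher in adult brain. Of 8 nucleation promoting factors tested, 3 were higher and none lower in adult brain over E12.5, where 38.6% of all genes were called and 17.8% were higher. Among them was Wasl, encoding N-WASP, which activates the Arp2/3 complex (50.0 ± 24.5 against 15.2 ± 2.78 CPM, log2 1.66 ± 0.57, adjusted p = 0.0185). Its levels are low, as 3 counts stand for 30.2 to 40.2 CPM in adult libraries. Fscn1, encoding the bundling protein fascin, was at 1184 ± 96.4 CPM in adult brain against 285 ± 68.9 CPM at E18.5 (log2 2.08 ± 0.17, adjusted p = 2.46e-12). The formin gene Fmnl3 was at 478 ± 126 CPM in adult brain against 179.6 ± 48.3 CPM in brain at E12.5 (log2 1.41 ± 0.23, adjusted p = 3.77e-06).

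Between yolk sac and brain at E12.5, genes of the wider list differed in both directions. Fmnl3 was lower, at 25.1 ± 5.73 CPM in yolk sac against 179.6 ± 48.3 CPM in brain (log2 −2.80 ± 0.29, adjusted p = 3.84e-10). Eps8, encoding a capping and bundling protein, was at 134.4 ± 79.2 CPM in yolk sac against 9.44 ± 9.71 CPM in brain (log2 3.55 ± 0.52, adjusted p = 1.77e-06). In these brain libraries 3 counts stand for 5.62 to 13.1 CPM, so the size of the Eps8 fold change is uncertain. Zyx, encoding zyxin of focal adhesions, was at 675 ± 56.4 CPM in yolk sac against 349.7 ± 35.5 CPM in brain (log2 0.99 ± 0.18, adjusted p = 5.40e-05).

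**Figure D5:**
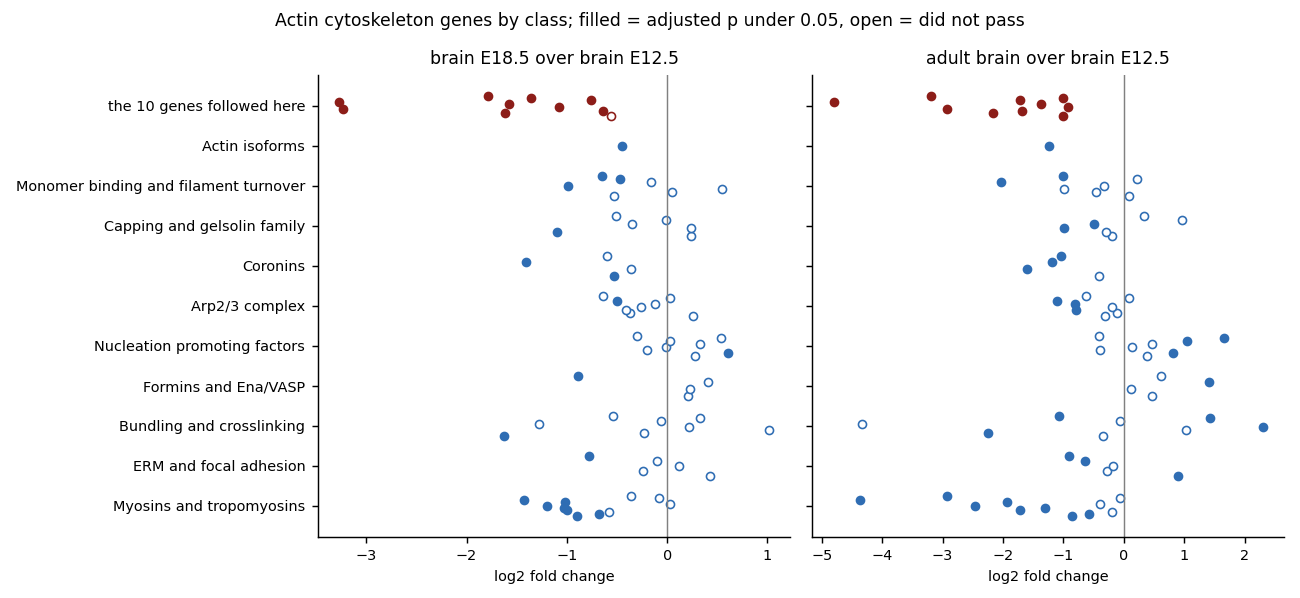
Log2 fold change of the 10 genes (red, Gsn at its bound in adult brain) and of other actin cytoskeleton genes in the classes drawn (blue) in brain, for E18.5 over E12.5 and adult over E12.5, with filled points past an adjusted p of 0.05. The 10 genes lie left of 0 in both panels, while the classes spread to both sides, and genes with no or few adult UMIs are drawn at a fitted value that depends on the prior count.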

How the data were processed

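Polyadenylated RNA of single sorted cells was sequenced by MARS-seq in 18 libraries. Per the submitters' processing notes, reads were demultiplexed with bcl2fastq 2.15.0.4 and the build was mm9. Which aligner was used, how molecules were counted and how reads shared by near-identical gene copies were assigned is not given in the sources used here, so Cfl1, Pfn1 and Tmsb10, which have processed copies in mammalian genomes, are less certain. The authors deposited a table of raw UMI counts, with genes in rows and wells in columns, and these counts were used unchanged. Wells annotated as 1 sorted cell with at least 300 UMIs were kept (3012 of 3420), and no doublet caller was run, since sorting set 1 cell per well. No well name was shared between libraries, and replicate pairs differed beyond sampling noise (chi-square per degree of freedom 1.49 to 5.54 over 33 pairs).

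Counts were summed per library and fitted in 1 model of 18 libraries with 4 groups (R 4.3.3, edgeR 4.0.16: filterByExpr, TMM factors, robust glmQLFit, glmQLFTest), with Benjamini-Hochberg adjustment over 4883 genes. The fit was tested on simulated data. Two-sided tests compared yolk sac over brain at E12.5, and each brain age over the earlier ones. CPM is counts over the library total of kept cells. Approximate 95% intervals are the log2 fold change and its standard error under a normal distribution. Thinning to 300 UMIs was random with a fixed seed, and correlations, plots and shares used Python 3.11.15, numpy 2.4.6, pandas 2.3.3, scipy 1.17.1 and matplotlib 3.10.9.

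The 10 genes, the wider actin list and the marker lists were chosen with earlier results of these data known, so no list was tested and no p-value was adjusted over a list alone. All 10 genes are named. In the wider list the rule names, per class and comparison, the called gene with the largest change; for likeness it names, per gene, the 2 highest correlations among single-symbol rows of at least 100 CPM in some group, with genes of ribosomes, mitochondrial transcripts, hemoglobins and numbered clones set aside. A few genes that these rules name, and 1 class of the wider list in its plot, are not reported here. Alternatives were other scalings, DESeq2 1.42.0, no filter, the compared groups alone, plate sums, batch as a covariate, other cell filters, thinning libraries to 74562 UMIs, and leaving out each library. Promoter windows came from RefSeq tables on GRCm38.p6 and were used only as sequence, since that is not the build of the counts.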

Additional observations from a re-analysis of the deposited data

Results flagged for a closer look

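Values of 43 gene and group sets of 4 to 6 libraries were screened for a single library far from the rest, and 2 stood out, where chance gives about 1 in 20. Gsn in brain E12.5 replicate 1 was at 261 CPM, above 215, 219 and 223 CPM in the other libraries of that group. Capg in yolk sac replicate 2 was at 305 CPM, below 355, 356 and 363 CPM in the others. Leaving out either library changed no call of that gene.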

How the results depend on the processing

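No paired analysis was possible because the labels give the libraries no replicate numbers of their own, and the numbers here follow accession order. At E18.5 over E12.5 and adult over E12.5, 8 to 10 of the 10 genes were called in every setting run, all lower. Without cells that held markers of other types, 9 of the 10 were tested and 8 called in both comparisons. In the order yolk sac over brain at E12.5, E18.5 over E12.5, adult over E18.5 and adult over E12.5, leaving out 1 library gave 625 to 727, 930 to 1118, 876 to 1033 and 1710 to 1797 genes called; 1 to 2, 8 to 10, 4 and 10 of the 10 genes; and 12 to 17, 19 to 27, 15 to 22 and 33 to 38 of the wider actin list. The other counts below moved by over 1.5 times, and the cause was not tested except where fewer cells, samples or UMIs entered.

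For yolk sac over brain at E12.5, RLE scaling called 4 of the 10 genes (15.7% of all genes) and the batch covariate 5 (10.6%). Plate sums called 493 genes (7.14% of the 6902 tested), 1 of the 10 and 7 of the wider list. Leaving out cells with markers of other types, with border macrophage markers allowed, called 362 (17.6%) and 9 of the list. Thinned libraries called 377 (16%) and 1 of the 10. For E18.5 over E12.5, genes called and those of the list were 660 and 11 with plate sums, 332 and 9 with the batch covariate, 456 and 15 without cells with other markers, 555 and 15 with border markers allowed, 640 and 13 without cycling cells, and 621 and 12 after thinning. Fewer genes were tested in the last 4 settings, and the shares called were 35.2%, 27%, 22.6% and 26.4%. Plate sums called 9.56% of the 6902 genes tested, and the batch covariate 6.8% of 4883. For adult over E18.5, genes called and those of the list were 698 and 13 with plate sums, where 10.1% of 6902 genes were called. They were 212 and 6 without cells with other markers, with 2 of the 9 members tested called. With border markers allowed they were 223 and 7, with 2 of the 10 called. Without cycling cells 650 genes were called, and 692 after thinning, so the shares of these 4 settings were 16.4%, 10.9%, 23% and 29.4%. For adult over E12.5 they were 487 and 15 without cells with other markers and 544 and 16 with border markers allowed, while the batch covariate called 910 genes, no cycling cells 1110 and thinning 1060; the 4 shares with fewer genes tested were 37.6%, 26.5%, 39.3% and 45%.

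Directions turned only for differences that had not passed. For yolk sac over brain at E12.5 (log2) Gsn was 0.087, Cnn2 −0.019 and Tmsb10 −0.45 with the batch covariate; Gsn was 0.17, Cnn2 −0.43 and Tmsb10 −0.044 with border markers allowed; and Gsn was 0.070, Cnn2 −0.30, Tmsb10 −0.44 and Arpc1b 0.053 without cycling cells. Leaving out 1 library gave ranges of −0.077 to 0.20 for Cnn2, −0.13 to 0.36 for Tmsb10 and −0.21 to 0.028 for Gsn. For adult over E18.5, Coro1a was −0.021 with no filter, Capg 0.18 without cells with other markers, and Cotl1 −0.026, Capg 0.060 and Tagln2 −0.16 with border markers allowed. Leaving out 1 library gave −0.13 to 0.64 for Cnn2 and −0.28 to 0.58 for Tagln2. DESeq2 moved the median of all genes by 0.15 at E18.5 over E12.5 and by 0.19 at adult over E12.5, no filter moved it by −0.16 at adult over E12.5, and border markers allowed by −0.32 at adult over E18.5 and −0.25 at adult over E12.5. The setting with border macrophage markers allowed was added after seeing the data. Leaving out all cells with markers of other types could not be run for yolk sac, where 18 cells remained. Adult depth limits Gsn, Capg, Cnn2 and Tmsb10, each with at most 25 adult UMIs.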
